A study of Mus musculus with 12 samples.

Results

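Megakaryocyte and platelet genes were described in bone marrow-derived macrophages from mice without (ERRα-/-) or with (ERRα+/+) the nuclear receptor ERRα, which is encoded by Esrra. The list held 35 genes of 20887 named genes on the array; every one of them was on the array (44 of 27509 named probes) and every one passed the signal filter, among 13120 genes tested. The genes were chosen from a list of megakaryocyte and platelet genes made with earlier results of these arrays in view. Their genotype differences are therefore given as a description, with no test of a single gene. Their LPS responses were tested on the assumption, which could not be checked, that these responses played no part in the choice.

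The macrophages were grown from the marrow of male C57BL6 mice 6 to 8 weeks old, for 5 to 7 days with M-CSF, which drives progenitors towards macrophages. They received LPS, the bacterial cell wall lipid that triggers the inflammatory response, at 100 ng/mL, or PBS as its solvent. The 4 groups of 3 arrays were ERRα-/- cells with LPS, ERRα+/+ cells with LPS, ERRα-/- cells with PBS and ERRα+/+ cells with PBS. The labels do not say how the Esrra allele was made, how long LPS was given or whether replicates came from separate mice, so p-values measure the spread between these arrays.

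Megakaryocytes are large, polyploid marrow cells that shed platelets into the blood. The transcription factors GATA1, NF-E2 and FLI1 act in their maturation, during which they load granules with chemokines and adhesive proteins and place receptors for von Willebrand factor, fibrinogen, collagen and thrombin on their surface. They arise from marrow progenitors, the same source from which macrophages are cultured. Most of the listed genes are used as markers of the megakaryocyte lineage, but several are shared with endothelium (Vwf, Selp, Esam, Mmrn1), osteoclasts (Itgb3), microglia (P2ry12) or most blood cells (Fli1).

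Some promoters of the listed genes are shown because the genes moved together, and because the GATA and ETS families, to which GATA1 and FLI1 belong, act in this lineage. RefSeq promoters (build GRCm38.p6, 250 bases before to 50 after the start) were at hand for 27 of the 35 genes (29 promoters). The letters AGATAA, bound by GATA factors, stood on either strand in 8 of the 29, against 11.2% of 32851 promoters, and the letters GGAAGT, bound by ETS factors, in 11 of the 29, against 23.8%. Both stood in 3 of the 29 (Pf4, Gp5 and Gp6), against 2.43% of all promoters; no match of either motif overlapped one of the other in the promoters printed. Printed 5′ to 3′ on the strand of the gene, with matches in capitals on either strand (ACTTCC is GGAAGT read on the other strand), are those of Pf4 and Gp6, with both motifs, of Gp9, with the ETS letters only, and of Gp1ba, with neither. They lie at chr5:90772185-90772484 (Pf4, plus strand), chr7:4397695-4397994 (Gp6, minus strand), chr6:87777820-87778119 (Gp9, plus strand) and chr11:70638872-70639171 (Gp1ba, plus strand). A match is a description of these letters and not a binding site. Only these exact letters were searched, so a promoter without a match may still hold other forms of either motif.
Pf4: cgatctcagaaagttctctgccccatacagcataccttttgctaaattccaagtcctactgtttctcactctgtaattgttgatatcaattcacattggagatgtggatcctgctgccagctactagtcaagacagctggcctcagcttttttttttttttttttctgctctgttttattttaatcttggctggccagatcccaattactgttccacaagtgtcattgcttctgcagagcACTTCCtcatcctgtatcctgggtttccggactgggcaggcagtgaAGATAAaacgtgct
Gp6: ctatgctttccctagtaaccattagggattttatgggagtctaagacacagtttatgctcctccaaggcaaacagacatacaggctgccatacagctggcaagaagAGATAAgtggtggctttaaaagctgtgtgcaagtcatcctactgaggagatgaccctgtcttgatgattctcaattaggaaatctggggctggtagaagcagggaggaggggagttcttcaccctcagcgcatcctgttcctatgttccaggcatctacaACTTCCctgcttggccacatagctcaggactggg
Gp9: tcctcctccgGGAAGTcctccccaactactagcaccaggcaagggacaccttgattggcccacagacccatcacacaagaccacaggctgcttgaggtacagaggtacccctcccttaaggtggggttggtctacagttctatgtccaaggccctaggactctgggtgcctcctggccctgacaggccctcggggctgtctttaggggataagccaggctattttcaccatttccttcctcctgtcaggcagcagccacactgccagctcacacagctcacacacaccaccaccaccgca
Gp1ba: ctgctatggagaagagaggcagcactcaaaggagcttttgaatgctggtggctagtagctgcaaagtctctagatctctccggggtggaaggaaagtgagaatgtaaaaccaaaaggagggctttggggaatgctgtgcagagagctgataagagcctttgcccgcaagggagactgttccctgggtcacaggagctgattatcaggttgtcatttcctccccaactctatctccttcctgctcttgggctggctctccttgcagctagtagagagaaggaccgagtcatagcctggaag

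Levels are log2 of the processed signal relative to the 75th percentile of the array, and are compared between arrays for one probe and never between genes. Between 46.3% and 57.4% of spots per array were well above background, and no spot was saturated. Replicate 1 of every group lay on slide 1, and replicates 2 and 3 on slide 2. The spread between repeated spots was larger on ERRα+/+ PBS replicates 2 and 3 (coefficient of variation 17.1% and 11.9%) than on the other arrays (5.74% to 8.33%). Esrra read 3.61 to 4.20 on ERRα-/- LPS arrays and 5.66 to 6.14 on ERRα+/+ LPS arrays. With PBS it read -0.06 to 2.28 on ERRα-/- arrays and 4.19 to 4.49 on ERRα+/+ arrays, so the targeted gene was lower on every ERRα-/- array of either treatment, though not at background. Of the macrophage markers, 9 of 9 on the array were above background on all 12 arrays, and no macrophage marker was called between genotypes on average over treatments.

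Most of the 35 listed megakaryocyte and platelet transcripts were lower in ERRα-/- cultures. Averaged over both treatments, 33 of the 35 genes had a negative genotype difference, with a median of -1.08 on the log2 scale (2.11-fold lower), against a median of -0.02 over all genes tested. The middle of the distribution was narrow, with quartiles at -1.16 and -0.84, and 25 of the 35 were below -1, against 1.52% of all genes. The exceptions were P2ry12 (0.54 ± 0.34, SE) and Fli1 (0.03 ± 0.24). In limma, 23 of the 35 genes passed an adjusted p of 0.05 as lower in ERRα-/- cells, beside 0.953% of all genes. Since the list was made with this contrast in view, the values above describe the list alone, and nothing is read from that count. It was 15 without ERRα+/+ LPS replicate 2 and 15 without ERRα-/- PBS replicate 3. In bulk samples, fewer cells of a type and less RNA per cell cannot be told apart.

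The difference was seen under either treatment. With LPS, the median of the 35 genes was -1.00, and 29 genes were lower on every ERRα-/- array than on every ERRα+/+ array, beside 7.39% of all genes. With PBS, the median was -1.13, and 28 genes did not overlap, beside 8.64% of all genes. In 25 of the 35 the genotypes did not overlap under either treatment, beside 1.93% of all genes; the other 10 were Itga2b, Gng11, Trpc6, Nfe2, Vwf, Selp, Thbs1, P2rx1, P2ry12 and Fli1. Counts past the adjusted p were 1 gene with LPS (0.0686% of all genes) and 13 with PBS (0.381%). With the replicate number as a block they were 17 (0.686%) and 22 (1.18%). Since the list was made with earlier results of these arrays in view, nothing is read from these counts either. Within slide 1 the median difference was -0.71 with LPS and -0.99 with PBS, and within slide 2 it was -1.12 with LPS and -1.22 with PBS.

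**Figure D1:**
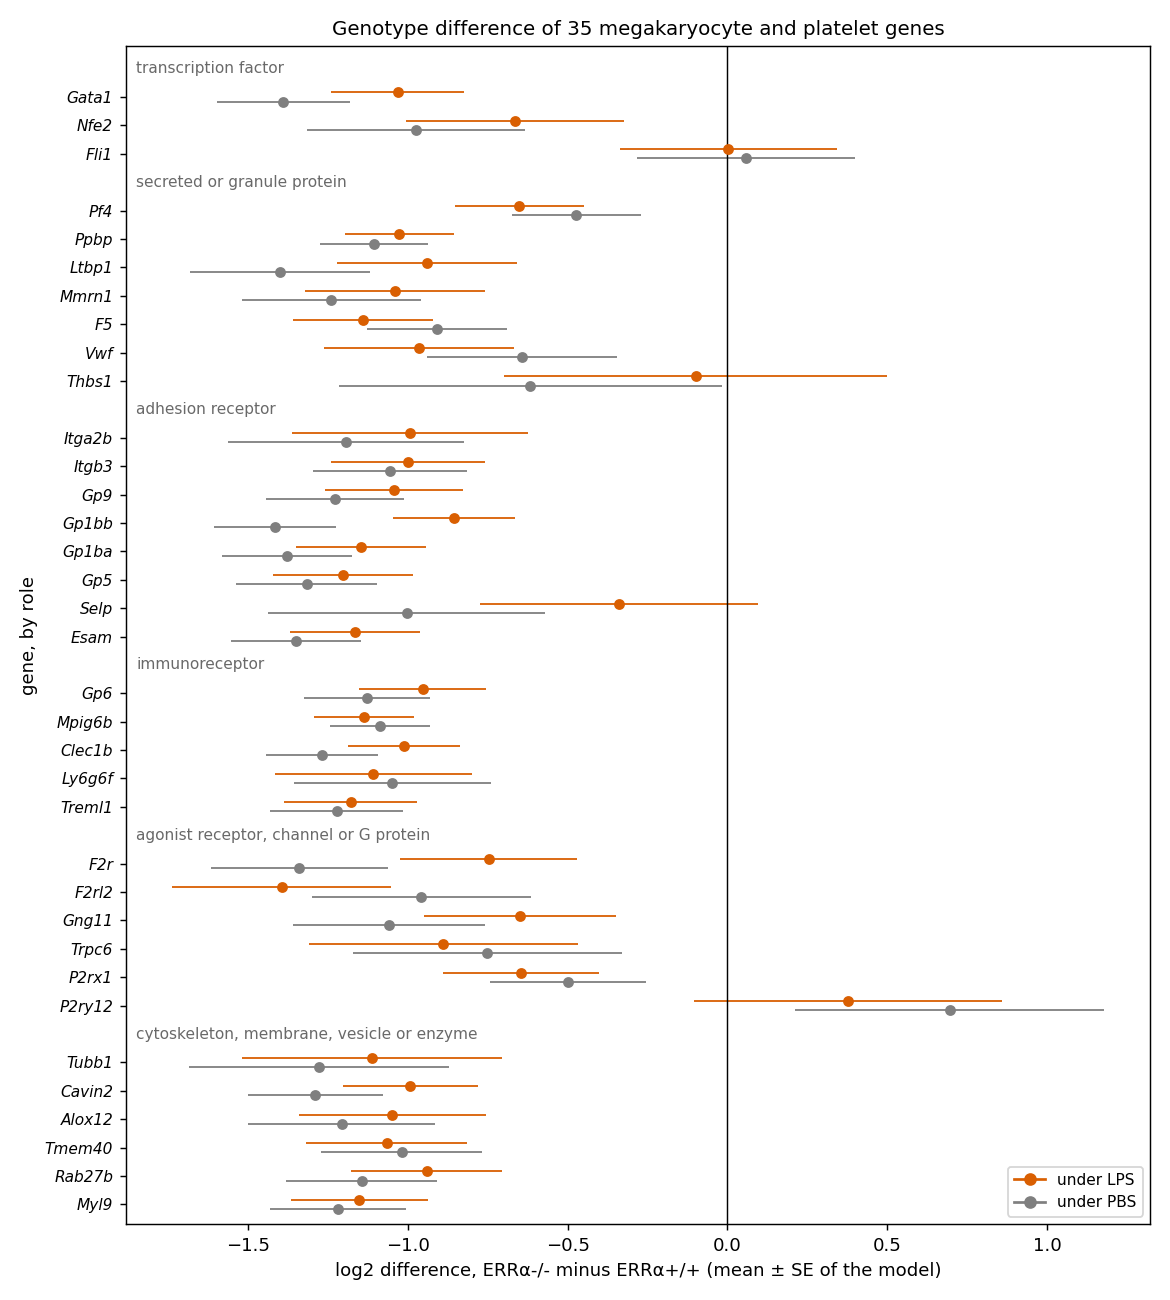
Genotype difference of each of the 35 genes, in log2 units (ERRα-/- minus ERRα+/+), with LPS (orange) and with PBS (grey); points are means of 3 against 3 arrays and bars the SE of the model. Points of 33 genes averaged below 0 over both treatments, most near -1, and P2ry12 and Fli1 were at or above 0.

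Of the transcription factors, Gata1, the factor that sets the erythroid and megakaryocytic programme, was lower on every ERRα-/- array, and the values of Fli1 overlapped between genotypes. Gata1 read 0.09, -0.34 and -0.19 on ERRα-/- LPS arrays, against 0.76, 0.99 and 0.90 on ERRα+/+ LPS arrays. With PBS, Gata1 read -0.36, -0.82 and -0.77 on ERRα-/- arrays, against 0.91, 0.97 and 0.34 on ERRα+/+ arrays. The genotypes did not overlap under either treatment, and the differences were -1.03 ± 0.21 with LPS and -1.39 ± 0.21 with PBS. Nfe2, which encodes the NF-E2 subunit needed for platelet release, read 1.21, -0.10 and -0.03 on ERRα-/- LPS arrays, against 1.12, 1.01 and 0.94 on ERRα+/+ LPS arrays. Replicate 1 of ERRα-/- LPS was thus the highest of the 6, and the within-slide difference was 0.09 on slide 1 and -1.04 on slide 2. With PBS, Nfe2 read 0.41, -0.30 and -0.29 on ERRα-/- arrays, against 1.26, 0.86 and 0.62 on ERRα+/+ arrays, without overlap. Fli1, an ETS factor, read 1.68, 1.30 and 1.34 on ERRα-/- LPS arrays, against 1.43, 1.47 and 1.41 on ERRα+/+ LPS arrays, and with PBS its genotype difference was 0.06 ± 0.34.

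Granule proteins were lower in ERRα-/- cells by unequal amounts. Pf4, the platelet chemokine CXCL4, read 6.43, 6.52 and 6.42 on ERRα-/- LPS arrays, against 7.44, 6.97 and 6.91 on ERRα+/+ LPS arrays. With PBS, Pf4 read 5.75, 5.87 and 5.79 on ERRα-/- arrays, against 5.91, 6.64 and 6.28 on ERRα+/+ arrays. The genotypes did not overlap under either treatment, but the Pf4 difference (-0.65 ± 0.20 with LPS and -0.47 ± 0.20 with PBS) was nearer to 0 than that of most listed genes. Ppbp, the other abundant platelet chemokine precursor, read 3.75, 3.60 and 3.61 on ERRα-/- LPS arrays, against 4.46, 4.90 and 4.67 on ERRα+/+ LPS arrays. With PBS, Ppbp read 3.26, 3.13 and 3.16 on ERRα-/- arrays, against 4.06, 4.58 and 4.23 on ERRα+/+ arrays. Its differences were -1.03 ± 0.17 with LPS and -1.11 ± 0.17 with PBS, again without overlap. Coagulation factor F5 differed by -1.14 ± 0.22 with LPS and -0.91 ± 0.22 with PBS, Mmrn1, whose granule product binds factor V, by -1.04 ± 0.28 and -1.24 ± 0.28, and Ltbp1, which holds latent TGF-beta, by -0.94 ± 0.28 and -1.40 ± 0.28 in the same order of treatments.

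Vwf and Thbs1, both secreted adhesive proteins, overlapped between genotypes under at least 1 treatment. Vwf read 3.07, 2.36 and 2.40 on ERRα-/- LPS arrays, against 3.81, 3.64 and 3.28 on ERRα+/+ LPS arrays, without overlap. With PBS, Vwf read 3.34, 2.62 and 2.61 on ERRα-/- arrays, against 3.95, 3.48 and 3.07 on ERRα+/+ arrays, where replicate 1 of ERRα-/- exceeded replicate 3 of ERRα+/+. Slide 1 held the highest Vwf value of each group. Thbs1, which macrophages also make, read 2.71, 3.83 and 3.70 on ERRα-/- LPS arrays, against 2.78, 3.98 and 3.78 on ERRα+/+ LPS arrays, and slide 1 held its lowest value in each group. The genotypes overlapped under either treatment and the Thbs1 differences were -0.10 ± 0.60 with LPS and -0.62 ± 0.60 with PBS. Each ERRα-/- array was nevertheless below the ERRα+/+ array of the same replicate number under both treatments, by little with LPS.

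All 4 subunits of the von Willebrand factor receptor, the glycoprotein Ib-IX-V complex that tethers platelets to injured vessels, were lower in ERRα-/- cells without overlap under either treatment. Gp1ba read 0.59, 0.39 and 0.57 on ERRα-/- LPS arrays, against 1.45, 1.85 and 1.69 on ERRα+/+ LPS arrays. With PBS, Gp1ba read 0.02, 0.02 and 0.05 on ERRα-/- arrays, against 1.13, 1.89 and 1.20 on ERRα+/+ arrays. Averaged over treatments, its difference of -1.26 ± 0.14 was the furthest below 0 in the list. Gp9 read 1.51, 1.12 and 1.11 on ERRα-/- LPS arrays, against 2.22, 2.38 and 2.27 on ERRα+/+ LPS arrays. With PBS, Gp9 read 1.16, 0.64 and 0.76 on ERRα-/- arrays, against 2.25, 2.34 and 1.65 on ERRα+/+ arrays. The averaged differences of the complex lay close together: -1.14 ± 0.15 for Gp9, -1.14 ± 0.13 for Gp1bb and -1.26 ± 0.16 for Gp5.

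The fibrinogen receptor is the integrin of Itga2b and Itgb3, and both genes averaged near -1. Itga2b read -0.52, -0.88 and -1.10 on ERRα-/- LPS arrays, against 0.37, 0.14 and -0.04 on ERRα+/+ LPS arrays, without overlap. With PBS, Itga2b read -0.47, -1.87 and -1.60 on ERRα-/- arrays, against 0.51, -0.47 and -0.40 on ERRα+/+ arrays, which overlapped through replicate 1 of ERRα-/-. Itgb3 read 3.21, 2.89 and 2.90 on ERRα-/- LPS arrays, against 3.87, 4.20 and 3.92 on ERRα+/+ LPS arrays. With PBS, Itgb3 read 3.25, 2.58 and 2.60 on ERRα-/- arrays, against 3.98, 4.18 and 3.43 on ERRα+/+ arrays, and neither treatment showed overlap. A second Itgb3 probe gave -0.76 with PBS but 0.02 with LPS. Esam, a junctional adhesion protein of platelets and endothelium, averaged -1.26 ± 0.14 without overlap.

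The immunoreceptors formed an even group, with averaged differences between -1.20 and -1.04 and no overlap in any of the 5 genes under either treatment. Gp6, the collagen receptor, read -1.28, -1.25 and -1.29 on ERRα-/- LPS arrays, against -0.67, -0.04 and -0.26 on ERRα+/+ LPS arrays. With PBS, Gp6 read -2.00, -2.07 and -1.89 on ERRα-/- arrays, against -0.96, -0.50 and -1.12 on ERRα+/+ arrays. Clec1b, the podoplanin receptor, read 1.21, 1.01 and 1.02 on ERRα-/- LPS arrays, against 2.09, 2.15 and 2.04 on ERRα+/+ LPS arrays. With PBS, Clec1b read 0.99, 0.54 and 0.73 on ERRα-/- arrays, against 2.12, 2.25 and 1.70 on ERRα+/+ arrays. Mpig6b, an inhibitory receptor of platelets, read -3.21, -3.36 and -3.51 on ERRα-/- LPS arrays, against -2.20, -2.11 and -2.37 on ERRα+/+ LPS arrays, and its SE of 0.16 was the smallest in the list. Treml1, kept in platelet granules, averaged -1.20 ± 0.15, and Ly6g6f, a platelet surface protein, -1.08 ± 0.22.

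Receptors for soluble agonists and their partners included genes on either side of 0. F2r, the thrombin receptor of human platelets, read -0.25, -0.28 and -0.13 on ERRα-/- LPS arrays, against 0.05, 0.74 and 0.80 on ERRα+/+ LPS arrays. With PBS, F2r read -1.23, -1.60 and -1.76 on ERRα-/- arrays, against 0.01, 0.19 and -0.77 on ERRα+/+ arrays, and the genotypes did not overlap under either treatment. F2rl2, which helps thrombin act on mouse platelets, was dim: no ERRα-/- LPS array and 2 of 3 ERRα+/+ LPS arrays were well above background. It was at least 1.31-fold lower in ERRα-/- cells with LPS, a bound computed against the lowest well-measured signal of each dim array. With PBS, F2rl2 read -5.79 to -4.66 on ERRα-/- arrays, of which 1 was well above background, against -4.36 to -4.10 on ERRα+/+ arrays, of which 3 were. P2rx1, an ATP-gated channel, averaged -0.57 ± 0.17, the calcium channel gene Trpc6 -0.82 ± 0.30 and the G protein subunit Gng11 -0.85 ± 0.21, each with overlap under at least 1 treatment.

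P2ry12, the platelet ADP receptor targeted by clopidogrel, went against the list. It read -3.39, -2.64 and -2.62 on ERRα-/- LPS arrays, against -4.09, -2.71 and -2.97 on ERRα+/+ LPS arrays. With PBS, P2ry12 read -2.10, -1.12 and -1.29 on ERRα-/- arrays, against -3.17, -1.55 and -1.88 on ERRα+/+ arrays. The ranges overlapped, yet each ERRα-/- array was above the ERRα+/+ array of the same replicate number under both treatments. Slide 1 was lowest in all 4 groups, and within slide 1 the averaged difference was 0.89, within slide 2 0.36.

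The structural and enzyme genes were lower in ERRα-/- cells without overlap under either treatment in 6 of 6. Tubb1, the tubulin of the platelet's marginal band, read -3.13, -3.63 and -3.79 on ERRα-/- LPS arrays, against -1.93, -2.48 and -2.79 on ERRα+/+ LPS arrays. With PBS, Tubb1 read -3.04, -4.42 and -4.07 on ERRα-/- arrays, of which 2 of 3 were well above background, against -1.86, -2.82 and -3.02 on ERRα+/+ arrays. Slide 1 read higher in every group, and the difference within slide 1 (-1.19 averaged over treatments) was close to that within slide 2 (-1.20). Myl9, a myosin light chain, averaged -1.18 ± 0.15, Cavin2, a coat protein of caveolae, -1.14 ± 0.15, and Alox12, the platelet 12-lipoxygenase, -1.13 ± 0.21. Rab27b, which directs granule release, averaged -1.04 ± 0.17, as did the membrane protein gene Tmem40 (-1.04 ± 0.18).

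**Figure D2:**
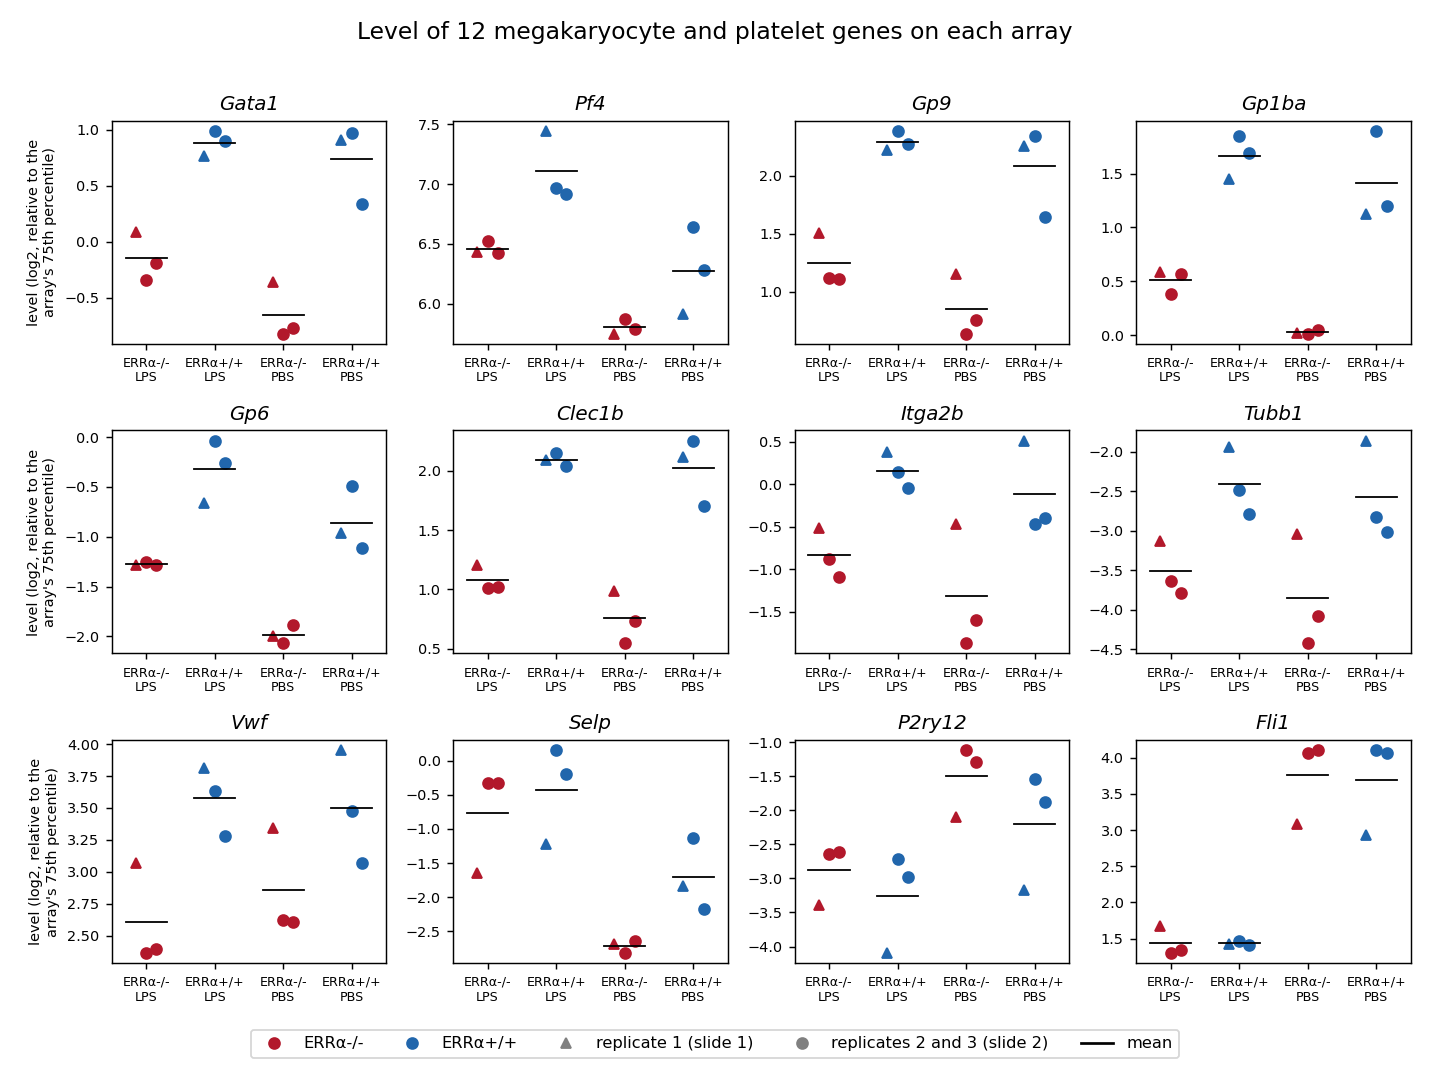
Level of 12 of the 35 genes on every array (log2 relative to the 75th percentile of the array), with triangles for replicate 1 on slide 1, circles for replicates 2 and 3 on slide 2 and a line at the mean of 3. Gata1, Gp9, Gp1ba, Gp6, Clec1b and Tubb1 are lower on all ERRα-/- arrays of either treatment, whereas P2ry12 and Fli1 are not.

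The summed signal of the 34 listed genes without Pf4, relative to the 75th percentile, was 70.4 to 76.4 on ERRα-/- LPS arrays, against 119 to 147 on ERRα+/+ LPS arrays. With PBS it was 72.2 to 74.6 on ERRα-/- arrays, against 117 to 160 on ERRα+/+ arrays. The ERRα-/- arrays thus held a narrower range than the ERRα+/+ arrays, whose highest value was PBS replicate 2. Such sums weigh bright genes such as Ppbp and Itgb3 most, and dim genes add little to them. With Pf4 added, the sums were 156 to 164 on ERRα-/- LPS arrays, against 246 to 294 on ERRα+/+ LPS arrays, and 128 to 131 on ERRα-/- PBS arrays, against 187 to 260 on ERRα+/+ PBS arrays. The genes lay on 14 chromosomes with at most 6 on any of them, and none lay on chromosome 19. A further 9 probes measured listed genes but were not used in the tests. Counting all 44 probes, 39 had lower means in ERRα-/- cells under both treatments.

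Other genes of the lineage, taken from a second list that shares no gene with the first, had a median nearer to 0. Of 42 such genes, 38 were tested and 30 had a negative averaged difference, with a median of -0.34. In limma, 5 of the 38 were called lower, beside 0.953% of all genes, and 0 higher. With the replicate number as a block, 8 of the 38 were called lower, beside 2.76% of all genes. This list too was chosen with earlier results of these arrays known, so nothing is read from those counts and its genes are given as values. The averaged difference was -1.40 ± 0.21 for Clu, a granule chaperone, and -1.13 ± 0.15 for Sparc, a granule matrix protein. It was -1.04 ± 0.12 for Cd226, an adhesion receptor, and -0.95 ± 0.19 for Gucy1b1, a subunit of the nitric oxide receptor. Of 14 genes of platelet signalling that other blood cells share, such as Syk, none was called between genotypes in limma, and their median was 0.08.

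Markers of other cell types moved with genotype as well. Of 7 endothelial markers tested, 4 were called lower in ERRα-/- cells on average over treatments (Emcn at -1.67, Robo4 at -1.56, Cldn5 at -1.01 and Plvap at -0.91), as were 3 of 9 stromal markers (Postn at -2.10, Cxcl12 at -1.08 and Acta2 at -1.04). Of the progenitor markers 1 of 7 (Cd34 at -1.04) and of the erythroid markers 1 of 7 (Hbb-bt at -0.90) were called lower. The medians were -0.91 for the endothelial, -0.97 for the stromal, -0.40 for the progenitor and -0.56 for the erythroid markers. Of the 7 erythroid markers, 6 were below 0. Of all genes, 0.953% were called lower on that average. The markers were chosen with earlier results of these data known, so nothing is read from the counts of calls in this paragraph. The erythroid markers Alas2, Epb42 and Klf1 were above background on no array. None of 9 neutrophil markers (median -0.64), 7 mast cell and basophil markers (median -0.53), 7 osteoclast markers (median -0.64), 4 lymphocyte markers (median -0.33) or 9 macrophage markers (median 0.10) was called on that average in limma without a block. Slide 2 alone called 8 of the 9 neutrophil and 7 of the 7 mast cell and basophil markers lower, beside 11.1% of all genes. Within slide 1 the median was 0.02 for the neutrophil and 0.23 for the mast cell and basophil markers, and within slide 2 it was -0.97 and -0.92. Their part in the result was not tested.

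The medians of the endothelial, stromal and neutrophil markers were further below 0 with PBS than with LPS. With PBS the median was -1.54 for the endothelial markers, and 5 of 7 were lower without overlap, beside 8.64% of all genes. It was -1.15 for the stromal markers (7 of 9) and -1.04 for the neutrophil markers (5 of 9), beside -1.13 for the 35 platelet genes. With LPS the median was -0.28 for the endothelial markers, and 0 of 7 were lower without overlap, beside 7.39% of all genes. It was -0.68 for the stromal markers (3 of 9) and -0.32 for the neutrophil markers (0 of 9), beside -1.00 for the 35 platelet genes. In lists this short a count of 0 is near the share of all genes and is no result about the list. With LPS the slides differed in sign for 2 of these lists. The endothelial median was 0.14 within slide 1 and -0.65 within slide 2, and the neutrophil median 0.84 and -0.86. The stromal median was -1.23 and -0.31 in the same order. With PBS all were below 0 on both slides (endothelial -1.45 and -1.46, neutrophil -0.61 and -1.14, stromal -1.77 and -0.87). The difference between treatments was not tested for any list.

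Summed over each list, marker signals were lower in ERRα-/- cells without overlap in 4 of 9 lists with PBS and in 0 of 9 with LPS. With PBS the stromal sum was 7.94 to 9.53 on ERRα-/- arrays, against 11.7 to 17.0 on ERRα+/+ arrays, and the progenitor sum 1.97 to 2.90 on ERRα-/- arrays, against 3.74 to 4.44 on ERRα+/+ arrays. The neutrophil sum was 204 to 247 on ERRα-/- PBS arrays, against 268 to 389 on ERRα+/+ PBS arrays. The mast cell and basophil sum was 3.29 to 4.98 on ERRα-/- PBS arrays, against 5.07 to 6.42 on ERRα+/+ PBS arrays. With LPS the stromal sum was 10.1 to 19.5 on ERRα-/- arrays, against 18.3 to 21.1 on ERRα+/+ arrays, and the neutrophil sum 274 to 433 on ERRα-/- arrays, against 231 to 460 on ERRα+/+ arrays. The progenitor sum was 1.94 to 2.74 on ERRα-/- LPS arrays, against 2.38 to 3.24 on ERRα+/+ LPS arrays. The erythroid sum overlapped under both treatments, with 7.34 to 8.60 on ERRα-/- LPS arrays, against 7.30 to 13.9 on ERRα+/+ LPS arrays, and 8.81 to 11.7 on ERRα-/- PBS arrays, against 8.75 to 17.3 on ERRα+/+ PBS arrays.

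The endothelial sum was carried by 1 gene, the VEGF receptor gene Kdr, whose averaged genotype difference was 0.01 ± 0.16. With Kdr, it was 13.9 to 20.1 on ERRα-/- LPS arrays, against 13.2 to 20.6 on ERRα+/+ LPS arrays, and 11.3 to 13.7 on ERRα-/- PBS arrays, against 11.51 to 15.5 on ERRα+/+ PBS arrays. Without Kdr, it was 0.898 to 1.07 on ERRα-/- LPS arrays, against 0.956 to 1.86 on ERRα+/+ LPS arrays, and 0.778 to 0.893 on ERRα-/- PBS arrays, against 2.04 to 2.56 on ERRα+/+ PBS arrays. The ranges without Kdr thus overlapped with LPS and did not with PBS. Leaving the brightest gene out of each list, chosen after seeing the data, gave sums without overlap in 5 of 9 lists with PBS and in 0 of 9 with LPS. The erythroid sum then no longer overlapped with PBS (4.09 to 4.37 on ERRα-/- arrays, against 5.01 to 5.96 on ERRα+/+ arrays). The mast cell and basophil sum then overlapped with PBS (2.75 to 4.18 on ERRα-/- arrays, against 4.03 to 5.39 on ERRα+/+ arrays).

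**Figure D3:**
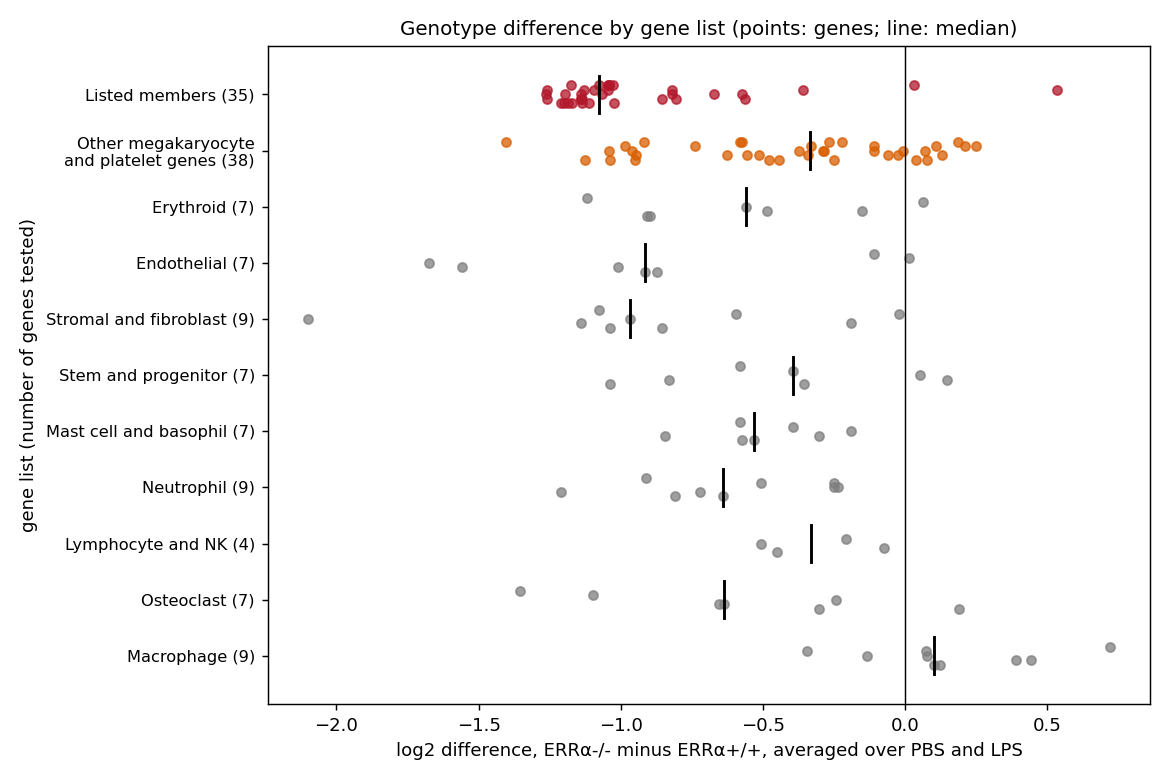
Genotype difference averaged over LPS and PBS (log2, ERRα-/- minus ERRα+/+) of every tested gene of the 35 listed genes, of the 38 other megakaryocyte and platelet genes and of the marker lists of other cell types, with a line at each list's median. The 35 listed genes have their median at -1.08 and the other megakaryocyte and platelet genes at -0.34, the endothelial and stromal lists lie mostly below 0, and the macrophage list has its median at 0.10.

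Without a block, limma called few of the 35 genes between LPS and PBS in either genotype. In ERRα-/- cells limma called 5 genes higher with LPS, beside 24.9% of all genes, and 2 lower, beside 25.6%, with a median of 0.37. In ERRα+/+ cells it called 3 higher, beside 21.8%, and 1 lower, beside 24.1%, with a median of 0.17. With the replicate number as a block, 11 were higher and 2 lower in ERRα-/- cells, beside 32.1% and 31.5% of all genes. The genes added there were Gata1, Gp1ba, Gp5, Mmrn1, Alox12 and Thbs1. In ERRα+/+ cells the block gave 4 higher and 2 lower, beside 29.6% and 31% of all genes, with F5 (0.45 ± 0.22, limma adjusted p = 0.02843 with the block) and P2ry12 added. Without ERRα-/- LPS replicate 2 or ERRα-/- PBS replicate 3, 4 genes in all were called in ERRα-/- cells. In ERRα+/+ cells, 2 were called without LPS replicate 2, without LPS replicate 3 or without PBS replicate 3, and 7 without PBS replicate 2.

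Fli1 had the largest fall with LPS among the 35 genes in both genotypes. It read 1.68, 1.30 and 1.34 on ERRα-/- LPS arrays, against 3.09, 4.07 and 4.10 on ERRα-/- PBS arrays, and 1.43, 1.47 and 1.41 on ERRα+/+ LPS arrays, against 2.93, 4.10 and 4.06 on ERRα+/+ PBS arrays. LPS and PBS arrays did not overlap. Fli1 fell by 2.31 ± 0.34 in ERRα-/- cells (limma adjusted p = 0.0003858) and by 2.26 ± 0.34 in ERRα+/+ cells (limma adjusted p = 0.0004804). P2ry12 fell by 1.38 ± 0.48 in ERRα-/- cells (limma adjusted p = 0.03492) and its difference was -1.06 ± 0.48 in ERRα+/+ cells (limma adjusted p = 0.09572; 0.0008407 with the replicate number as a block, which calls it). Normexp background correction ended the P2ry12 call in ERRα-/- cells, with a difference of -0.69.

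Selp, the gene of P-selectin, which platelets and endothelium store in granules, had the largest rise. It read -1.65, -0.32 and -0.32 on ERRα-/- LPS arrays, against -2.69, -2.82 and -2.64 on ERRα-/- PBS arrays. In ERRα+/+ cells Selp read -1.23, 0.15 and -0.20 on LPS arrays, against -1.83, -1.13 and -2.17 on PBS arrays, with overlap. The rise was 1.95 ± 0.43 in ERRα-/- cells (limma adjusted p = 0.003957) and 1.28 ± 0.43 in ERRα+/+ cells (limma adjusted p = 0.03265). Of the 7 endothelial markers, limma called 0 higher and 0 lower with LPS in ERRα-/- cells and 0 higher and 2 lower in ERRα+/+ cells, and with the replicate number as a block 1 was higher in each genotype. With LPS, the Selp ranges of the genotypes overlapped (difference -0.34 ± 0.43), whereas with PBS they did not (-1.00 ± 0.43).

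Among the other genes that LPS raised, F2r rose by 1.31 ± 0.28 in ERRα-/- cells (limma adjusted p = 0.002985), and its difference in ERRα+/+ cells was 0.72 ± 0.28 (limma adjusted p = 0.05532). Gp6 rose by 0.71 ± 0.20 in ERRα-/- cells (limma adjusted p = 0.01245) and by 0.54 ± 0.20 in ERRα+/+ cells (limma adjusted p = 0.0469). Pf4 rose by 0.65 ± 0.20 in ERRα-/- cells (limma adjusted p = 0.01964) and by 0.83 ± 0.20 in ERRα+/+ cells (limma adjusted p = 0.00674). Quantile normalization ended both Pf4 calls, with differences of 0.10 in ERRα-/- cells and 0.42 in ERRα+/+ cells, and normexp ended the one in ERRα-/- cells (0.58). Ppbp rose by 0.47 ± 0.17 in ERRα-/- cells (limma adjusted p = 0.04049) and its difference was 0.39 ± 0.17 in ERRα+/+ cells (limma adjusted p = 0.08526). Quantile normalization (0.18) and normexp (0.38) each ended the Ppbp call in ERRα-/- cells, and normexp (0.36) ended the Gp6 call in ERRα+/+ cells. In ERRα+/+ cells the LPS difference of Pf4 was 1.53 within slide 1 and 0.48 within slide 2.

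The calls of Fli1 in both genotypes, of Gp6, F2r and Selp in ERRα-/- cells and of Pf4 in ERRα+/+ cells were kept when any of the 12 arrays was left out. The Selp call in ERRα+/+ cells ended without LPS replicate 2 or 3 or PBS replicate 1 or 3 of that genotype (adjusted p up to 0.1263 in limma). The Pf4 call in ERRα-/- cells ended without LPS replicate 2, PBS replicate 1 or PBS replicate 3 (adjusted p up to 0.06311 in limma). That of P2ry12 in ERRα-/- cells ended without any single array of that genotype except PBS replicate 1 (up to 0.1122). The Ppbp call in ERRα-/- cells ended without any array of that genotype and without LPS or PBS replicate 3 of ERRα+/+ (up to 0.1103), and the Gp6 call in ERRα+/+ cells without any array except LPS replicate 1 and PBS replicate 2 of that genotype (up to 0.179).

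Every other one of the 35 genes missed the threshold in both genotypes without a block. Their LPS differences ran from -0.25 (Vwf) to 0.75 (Thbs1) in ERRα-/- cells and from -0.44 (Gng11) to 0.45 (F5) in ERRα+/+ cells. No difference in LPS response between genotypes was detected with 3 arrays per group: the interaction called 0 of the 35 genes and 0% of all genes in limma, with 0 of the 35 and 288 of 13120 genes at an unadjusted p under 0.05. The largest interaction values were 0.66 for Selp and 0.59 for F2r, both higher in ERRα-/- cells.

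**Figure D4:**
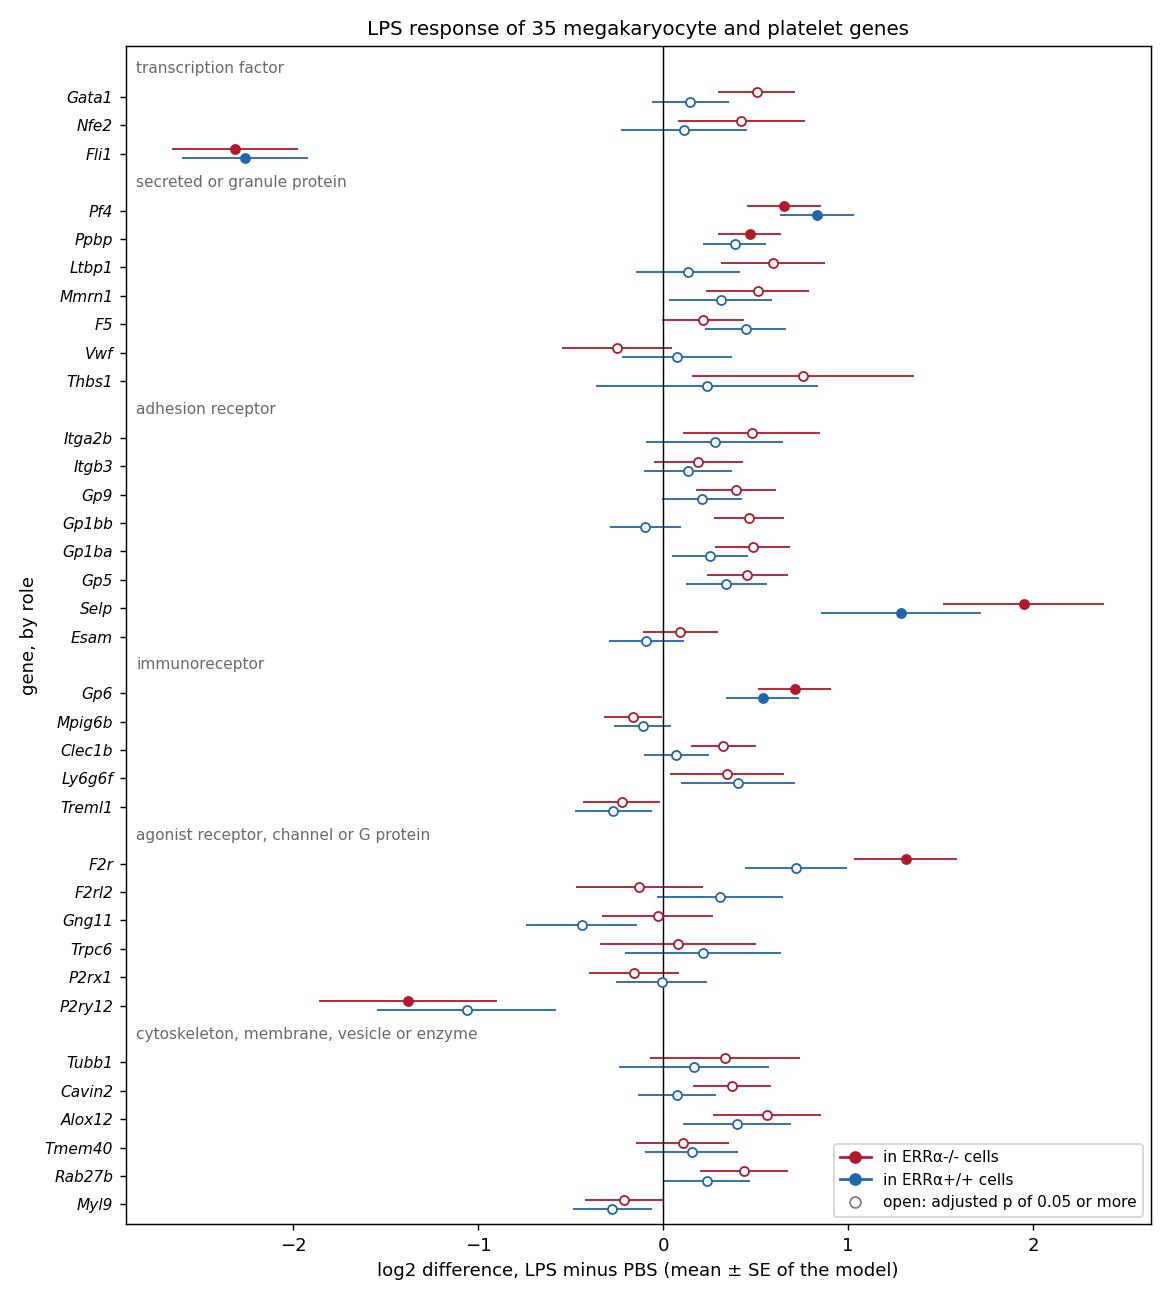
LPS response of each of the 35 genes in log2 units (LPS minus PBS), in ERRα-/- cells (red) and ERRα+/+ cells (blue), with bars for the SE of the model; filled points passed an adjusted p of 0.05. Fli1 and P2ry12 lie to the left, Selp and F2r furthest to the right, and most other genes between -0.5 and 0.8.

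The second list of lineage genes held genes that rose and genes that fell with LPS. Of its 38 genes, limma without a block called 8 higher and 7 lower in ERRα-/- cells, beside 24.9% and 25.6% of all genes. In ERRα+/+ cells it called 3 higher and 9 lower, beside 21.8% and 24.1%. Shares near those of all genes are no result about the list. Stx11, a syntaxin of granule release, rose by 4.14 ± 0.39 in ERRα-/- cells (limma adjusted p = 2.976e-05), and Plek, the major protein kinase C substrate of platelets, by 3.00 ± 0.31 (limma adjusted p = 4.962e-05). Lyl1, a transcription factor of blood progenitors, fell by 2.97 ± 0.65 (limma adjusted p = 0.00366) and Nbeal2, needed for granule formation, by 2.66 ± 0.41 (limma adjusted p = 0.0005189). Of the 14 shared platelet signalling genes, 8 were called higher in ERRα-/- cells and 7 in ERRα+/+ cells, beside 24.9% and 21.8% of all genes. The largest rise was that of Lcp2, an adaptor below immunoreceptors, at 2.83 ± 0.56 (limma adjusted p = 0.001958) and 3.02 ± 0.56 (limma adjusted p = 0.001514). None of the 14 was called lower in either genotype without a block, beside 25.6% and 24.1% of all genes. Differences of 2 genes in ERRα-/- cells and 1 in ERRα+/+ cells were below 0, the lowest -0.06 and -0.15.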

How the data were processed

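Total RNA labelled with Cy3 was hybridised to 1-colour Agilent arrays, per the labels. The authors' deposited intensity values were made by Feature Extraction 11.5.1.1 per the file headers (9.3.2.1 per the submitters' processing notes), with background subtraction and detrending inside each array. For replicate 1 the labels name a smaller array than for replicates 2 and 3, but every file held the same 62976 spots. Flags deposited by the authors (0 or 1, per the file headers) marked spots well above background.

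Control spots were removed, spots of a probe averaged, and log2 signal minus the array's 75th percentile (340 to 701 in signal) was analysed. Probes were named by accession through the RefSeq annotation. Probes had to be well above background on every array of 1 group or more, and the brightest such probe on average stood for its gene. limma 3.58.1 (R 4.3.3, data.table package of version 1.17.8) fitted 4 group means over 12 arrays, with Benjamini-Hochberg adjustment over 13120 genes and calls at 0.05. SE is the standard error of the model, and n = 3 arrays per group. The number of arrays limits the precision. The script was tested on simulated data.

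The replicate numbers of the labels were used as a block. In every pair of groups, same-numbered arrays deviated together (r from 0.143 to 0.783). Replicate 1 alone lay on slide 1, so these r values cannot tell pairing from a slide difference. Alternatives were quantile normalization, normexp (offset 50, on the median signal), other filters and probe rules, slide or replicate number as a block, slide 2 alone, the authors' value table, and leaving out each array. The listed genes, the other lists and the markers were chosen with earlier results of these data known. The LPS tests of all of them assume that LPS responses played no part in the choice. Named were all 35 listed genes, Esrra, at most 6 called genes with the largest change per contrast of the second list, and called or undetected markers; Lcp2, Syk and Kdr were named after their values were seen. Some genes that this rule would name are not reported here.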

Additional observations from a re-analysis of the deposited data

How the results depend on the processing

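With the slide as a block, limma called 14 of the 35 genes for LPS in ERRα-/- cells (7 without a block), 9 for LPS in ERRα+/+ cells (4 without), 20 for genotype with LPS (1 without) and 25 for genotype with PBS (13 without). The replicate block gave 13 for LPS in ERRα-/- cells, 17 for genotype with LPS and 22 for genotype with PBS, and slide 2 alone gave 14, 11, 25 and 27 in the order of the first sentence. No filter on dim probes gave 2 for LPS in ERRα+/+ cells and 0 for genotype with LPS or with PBS. Leaving out both ERRα+/+ PBS arrays of slide 2, an alternative chosen after seeing the data, gave 2, 0 and 0 for the same comparisons. For genotype with LPS, normexp gave 2 and so did requiring signal on all 12 arrays. Leaving out 1 array gave 4 to 10 genes for LPS in ERRα-/- cells, 2 to 7 for LPS in ERRα+/+ cells, 0 to 5 for genotype with LPS, 0 to 14 for genotype with PBS and 15 to 24 for the averaged genotype; the count with PBS was 0 without ERRα-/- replicate 2 or 3 or ERRα+/+ replicate 2 of PBS. The averaged genotype count, 23, stayed between 18 and 31 under the other alternatives, and the interaction count was 0 under all. Between 32 and 34 of the 35 genotype differences stayed negative whichever array was left out. The genotype counts are of a list made with earlier results of these arrays in view, so nothing is read from them. The cause of these changes was not tested. Quantile normalization moved the median LPS response of all genes to -0.151 in ERRα-/- and -0.142 in ERRα+/+ cells. The dim probes of F2rl2 and Tubb1 limit what can be said of them.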
